A study of Mus musculus with 12 samples.

Results

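Cdhr1, Doc2g, Tbx21, Eomes and Shisa3 are 5 genes used to mark mitral and tufted cells, the projection neurons of the olfactory bulb. They were taken from the 55487 genes of the count table by symbol, and all 5 were found. They were chosen by their levels in KO and WT brain, so the brain values that follow describe these genes and do not test them. The liver of the same mice is given as a background tissue.

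Liver and brain RNA of 6 mice was sequenced in 4 groups of 3 libraries: KO liver and KO brain (mice A, C and F), and WT liver and WT brain (mice B, D and E). The deleted gene codes for METTL5, the methyltransferase that places m6A on 18S rRNA. Per the study's methods, a floxed exon 2 was introduced into C57BL/6 x 129S6 hybrid ES cells with Cas9, the line was backcrossed to B6, and a cross to a CMV-cre line gave deletion in the whole body. The labels call the controls WT, while the study elsewhere names heterozygous mice as the controls of its RNA-seq of mouse tissues. The labels give no sex, age, litter or batch, although the study used mice of both sexes, from 4 weeks to 6 months old.

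Mitral and tufted cells receive the input of olfactory sensory axons on dendrites within the glomeruli of the bulb. They release glutamate, are inhibited by granule and periglomerular cells of the bulb, and send their axons to the olfactory cortex. The 5 genes code for different kinds of protein. Tbx21 (T-bet) and Eomes (Tbr2) are T-box transcription factors, both also made by lymphocytes such as natural killer cells, and Eomes is in addition expressed by cortical intermediate progenitors and by unipolar brush cells of the cerebellum. Cdhr1 is a cadherin-related membrane protein that is also found in photoreceptors. Doc2g belongs to the family of double C2-domain proteins, and Shisa3 to the Shisa family of membrane adaptors.

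In mm10, Cdhr1 (ENSMUSG00000021803.10) is found on chromosome 14, minus strand, at positions 37077857 to 37098347. Doc2g (ENSMUSG00000024871.11) lies on the plus strand of chromosome 19 from 4003313 to 4007005. Tbx21 (ENSMUSG00000001444.2) is on chromosome 11, minus strand, from 97098071 to 97115331, and Eomes (ENSMUSG00000032446.14) on the plus strand of chromosome 9 from 118478212 to 118486132. Shisa3 (ENSMUSG00000050010.8) is on the plus strand of chromosome 5 from 67607882 to 67623552. The 5 genes are thus on 5 different chromosomes. Doc2g shares 1926 of its 3035 exonic bases with Gm49405 on the same strand, where a read cannot be given to one gene alone, and 1109 bases are its own. Shisa3 shares 138 exonic bases with Atp8a1 and Eomes 118 with Gm33460, in both cases on the opposite strand, which the stranded counting kept apart.

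The RefSeq promoters of the genes, 250 bases before to 50 after the annotated start in GRCm38.p6, were read for all 5 to see what the genes share in sequence. They differed widely in CpG content. The 3 shown are those with the fewest and the most CpG dinucleotides, and that of Eomes, whose values ran apart from those of the other 4 genes. CG dinucleotides are in capitals.
Doc2g, chr19:4003135-4003434, plus strand: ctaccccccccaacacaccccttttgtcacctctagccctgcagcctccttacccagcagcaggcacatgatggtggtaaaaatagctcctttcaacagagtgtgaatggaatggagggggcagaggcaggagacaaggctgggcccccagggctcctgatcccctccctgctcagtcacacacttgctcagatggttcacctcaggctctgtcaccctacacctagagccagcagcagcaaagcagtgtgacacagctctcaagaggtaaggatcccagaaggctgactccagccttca
Shisa3, chr5:67607633-67607932, plus strand: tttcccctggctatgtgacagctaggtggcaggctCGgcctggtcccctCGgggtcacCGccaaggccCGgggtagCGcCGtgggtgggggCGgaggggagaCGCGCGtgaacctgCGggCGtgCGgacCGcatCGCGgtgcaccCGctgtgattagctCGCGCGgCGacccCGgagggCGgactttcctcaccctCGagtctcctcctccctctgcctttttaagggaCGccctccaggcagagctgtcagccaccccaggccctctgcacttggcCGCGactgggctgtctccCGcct
Eomes, chr9:118477939-118478238, plus strand: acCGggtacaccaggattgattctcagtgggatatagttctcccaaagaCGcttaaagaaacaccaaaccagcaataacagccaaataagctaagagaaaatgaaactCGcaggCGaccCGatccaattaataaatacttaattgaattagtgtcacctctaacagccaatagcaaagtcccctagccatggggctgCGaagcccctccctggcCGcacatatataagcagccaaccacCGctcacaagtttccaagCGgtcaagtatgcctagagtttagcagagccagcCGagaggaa

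The Doc2g promoter held 0 CpG dinucleotides and the Shisa3 promoter 28, with 9 in Cdhr1, 21 in Tbx21 and 10 in Eomes. GC content was 47.3% in Eomes, 54% in Cdhr1, 57% in Doc2g, 62% in Tbx21 and 70% in Shisa3, against a median of 52.7% over 32851 promoters of the same length. Both strands were searched for GGTGTGA, the core of the T-box motif, and for TAATTA, a core bound by many homeodomain proteins, which do not overlap each other. Neither was found in any of the 5 windows. Of all promoters, 3.98% held the first and 5.29% the second, and the lack of a match says only that these letters are not in these windows.

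The libraries held from 14403309 to 21623180 counts. The targeted gene, Mettl5, was at 6.66 ± 2.14 CPM in WT and 3.70 ± 0.328 CPM in KO brain (CPM, normalised counts scaled to library size; SD, n = 3), without overlap, and its log2 fold change of -0.84 (SE 0.27) missed the threshold (edgeR adjusted p = 0.373). In liver it was at 10.5 ± 3.87 and 3.85 ± 0.215 CPM (SD, n = 3; -1.44, SE 0.27, edgeR adjusted p = 0.383). The deletion removes 1 exon and counts were summed over all exons, so the remaining counts check the labels in direction only. Mitochondrial rRNA took 7.63% to 17.7% of counts in WT brain and 21.4% to 31.6% in KO brain, and the libraries of mice E and F had at most 20 Y-linked counts against at least 2112 in the others, which puts 1 such mouse in each genotype.

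Of the 5 genes, 4 stood higher in every KO brain than in every WT brain, and Eomes did not. Cdhr1 was at 1.35, 2.31 and 2.96 CPM in WT brains B, D and E and at 10.7, 19.1 and 14.5 CPM in KO brains A, C and F. The lowest KO brain thus lay well above the highest WT brain. These levels rest on 21, 46 and 59 counts in WT and 132, 266 and 220 in KO. The means were 2.21 ± 0.810 and 14.8 ± 4.21 CPM (SD, n = 3), with a fitted log2 fold change of 2.72 (SE 0.32). Since these libraries are bulk tissue, more cells of a type and more RNA per cell cannot be told apart.

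Doc2g was at 0.193, 0.903 and 0.301 CPM in WT brains B, D and E, from 3, 18 and 6 counts. In KO brains A, C and F it was at 6.34, 6.76 and 5.27 CPM, from 78, 94 and 80 counts. The KO brains lay close together and far above the WT brains, among which mouse D was highest. The means were 0.466 ± 0.382 and 6.12 ± 0.767 CPM (SD, n = 3), with a fitted log2 fold change of 3.65 (SE 0.46), which was 4.55 (SE 0.40) without WT mouse D. Gm49405, which shares exons with Doc2g and was looked up after the Doc2g values were seen, was at 0.729 CPM in WT and 0.621 CPM in KO brain on average, with overlapping groups.

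Shisa3 was at 0.902, 1.05 and 0.955 CPM in WT brains B, D and E and at 3.82, 6.83 and 3.96 CPM in KO brains A, C and F, from 14, 21 and 19 and from 47, 95 and 60 counts. The WT brains were nearly level, and KO mouse C stood above the other KO brains. The means were 0.970 ± 0.0769 and 4.87 ± 1.70 CPM (SD, n = 3), with a fitted log2 fold change of 2.32 (SE 0.34). Atp8a1, on the other strand, was at 197 CPM in WT and 196 CPM in KO brain.

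Tbx21, the T-box factor most restricted to these neurons within the brain, had 1, 1 and 0 counts in WT brains B, D and E and 12, 21 and 12 counts in KO brains A, C and F. As CPM these were 0.0644, 0.0502 and 0 in WT and 0.975, 1.51 and 0.791 in KO. Tbx21 was thus barely detected in WT and low but present in each KO brain. The ratio of 45 to 2 counts, scaled for depth, was 30.1 (95% exact interval 7.86 to 256, for counting error only). The interval leaves out the spread between mice, and it is no test, since these brains chose the gene. Tbx21 passed the filter on low counts only through the KO libraries, as Doc2g also did, and its fitted log2 fold change of 4.64 (SE 0.77) depends on the prior count.

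Eomes, the other T-box factor, was at 2.90, 7.98 and 3.06 CPM in WT brains B, D and E and at 3.98, 8.92 and 4.35 CPM in KO brains A, C and F, from 45, 159 and 61 and from 49, 124 and 66 counts. The groups overlapped, since WT mouse D lay above KO mice A and F. The means were 4.65 ± 2.89 and 5.75 ± 2.75 CPM (SD, n = 3), with a fitted log2 fold change of 0.30 (SE 0.46). It was 0.94 (SE 0.38) without WT mouse D and -0.17 (SE 0.45) without KO mouse C, so a single library decided its direction.

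**Figure D1:**
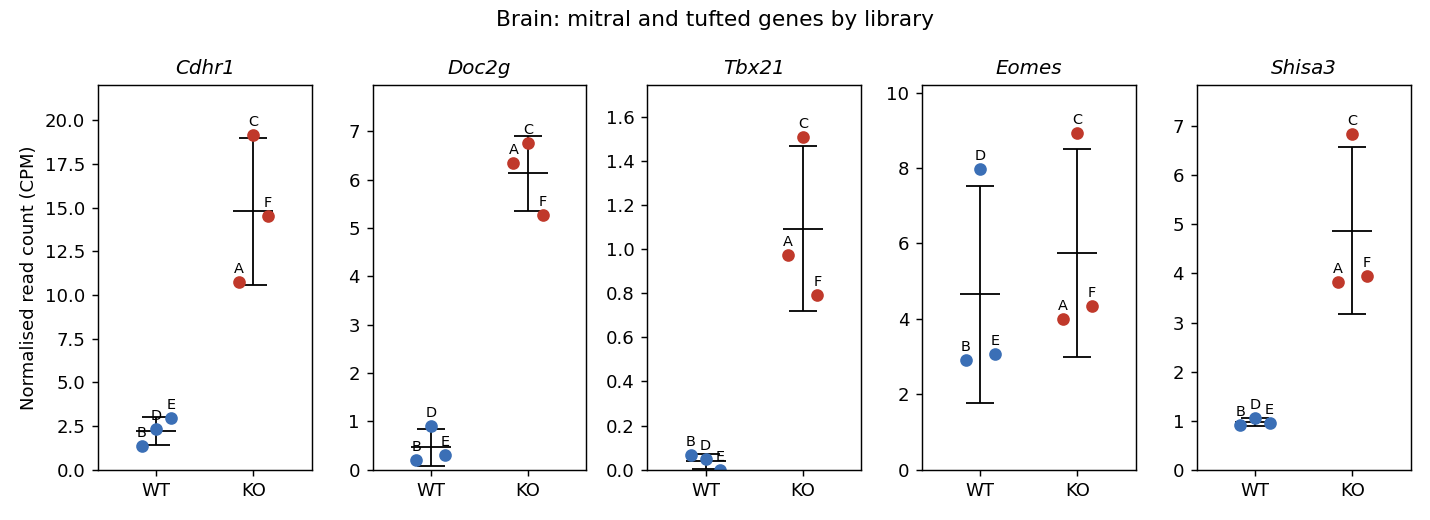
Normalised read count (CPM, linear axes from 0) of each gene in the brain libraries, one point per mouse with its letter, WT in blue and KO in red, with the mean and SD (n = 3) as black lines. Cdhr1, Doc2g, Tbx21 and Shisa3 have all 3 KO mice above all 3 WT mice, whereas for Eomes WT mouse D (7.98 CPM) lies above KO mice A and F.

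All 5 genes passed the filter on low counts in brain. For 4 of 5 the KO brains all lay above the WT brains, where 8.41% of the 17188 genes tested did so, and 0.0640% of those genes were called higher in KO at an adjusted p under 0.1. Because the same libraries chose these genes, nothing is read from this count. The lowest KO to highest WT values of the 4 non-overlapping genes were 10.7 and 2.96 CPM for Cdhr1, 5.27 and 0.903 CPM for Doc2g, 3.82 and 1.05 CPM for Shisa3, and 0.791 and 0.0644 CPM for Tbx21. The median log2 fold change over all genes tested was -0.0016. KO mouse C had the highest value of the KO brains for all 5 genes, and among WT brains mouse D was highest for Doc2g, Eomes and Shisa3, mouse E for Cdhr1 and mouse B for Tbx21.

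The order of the levels was compared per kilobase of exon, since the genes differ in length. In WT brain the mean level was 1.12 CPM per kb for Eomes, 0.510 for Cdhr1, 0.204 for Shisa3 and 0.154 for Doc2g, with Tbx21 at 0 to 0.0259. Shisa3 and Doc2g were not separated by their ranges. In KO brain the order was Cdhr1 at 3.41 CPM per kb, Doc2g at 2.02, Eomes at 1.38, Shisa3 at 1.02 and Tbx21 at 0.439. The ranges of Doc2g and Eomes overlapped, as did those of Eomes and Shisa3. Eomes thus had the highest mean per kilobase in WT and the third in KO. If no read in the shared exons was counted for Doc2g, its level per kilobase of its own 1109 bases was 0.420 in WT and 5.52 in KO, which would place it first in KO.

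Levels per kilobase were then set against that of Cdhr1 in the same library, a ratio free of the scaling between libraries. Eomes stood at 2.23, 3.60 and 1.08 times Cdhr1 in WT brains B, D and E and at 0.387, 0.486 and 0.313 times in KO brains A, C and F. The ratio was thus above 1 in every WT brain and below 1 in every KO brain. Shisa3 stood at 0.607, 0.416 and 0.293 times Cdhr1 in WT and at 0.324, 0.325 and 0.249 times in KO, which overlapped. Doc2g stood at 0.204, 0.559 and 0.145 times in WT and at 0.843, 0.504 and 0.519 times in KO, which overlapped through WT mouse D. Tbx21 stood at 0.0829, 0.0379 and 0 times Cdhr1 in WT, from 2 counts in all, and at 0.158, 0.137 and 0.0950 times in KO, without overlap. Cdhr1 and the other genes were chosen by their levels in these same brains. The splits of the Eomes and Tbx21 ratios are therefore a description and no test.

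Over the 6 brain libraries, Pearson correlations of log2 CPM ran from 0.933 (Cdhr1 and Tbx21) to 0.985 (Tbx21 and Shisa3) among Cdhr1, Doc2g, Tbx21 and Shisa3, and from 0.407 (Tbx21) to 0.506 (Doc2g) between those genes and Eomes. These are a description over 6 points that share genotype, library and depth. With the genotype means removed, they ran from -0.092 (Cdhr1 and Tbx21) to 0.835 (Doc2g and Eomes), with Tbx21 and Shisa3 at 0.727.

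By the same measure, the 10 other genes whose pattern was most like that of the 5 had mean correlations from 0.862 to 0.883 over the 6 brain libraries. They were Gm3307, Gm42974, Myo16, Nmb, Gm6218, Lnp1, Nrp2, Nup210l, Arhgef6 and Gm16385. Nmb, which codes for the peptide neuromedin B, is also among the other mitral and tufted genes listed next. With genotype means removed, the 10 most alike (0.762 to 0.765) were Arhgef10, Ubash3b, Tbcd, Casp12, Prmt2, Pold1, Acd, Fam20c, Gm44645 and Arap1, with no gene on both lists.

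Other genes of mitral and tufted cells were listed to see how they stood beside the 5. Of 11 listed, 10 could be tested in brain, and 0 were called higher or lower in KO (edgeR), where 0.0640% of all genes were called higher and 0% lower. At an unadjusted p under 0.05, 2 of the 10 were higher and 2 lower, where 10.97% of all genes passed in either direction. The remaining gene, Tfap2e, had too few counts for a test. The list's median log2 fold change was 0.14.

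Lbhd2, a gene used to mark mitral and tufted cells, was at 0.773, 0.652 and 0.151 CPM in WT brains B, D and E and at 3.17, 1.73 and 1.91 CPM in KO brains A, C and F. Nmb was at 0.193, 0.301 and 0.201 CPM in WT and at 1.14, 1.22 and 0.791 CPM in KO. Both thus had all KO brains above all WT brains, as 2 of the 10 genes did against 8.41% of all genes. Their log2 fold changes were 2.11 (SE 0.55) for Lbhd2 and 2.13 (SE 0.50) for Nmb, and neither passed the threshold (edgeR adjusted p = 0.320 for each). Both passed the filter on low counts only with the KO brains, so their place among the higher genes is no support for a difference.

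A further 1 of the 10 had all KO brains below all WT brains, where 7.94% of all genes did. Barhl2, a homeodomain factor, was at 17.9, 28.3 and 14.5 CPM in WT brains B, D and E and at 1.95, 9.21 and 5.34 CPM in KO brains A, C and F (-1.87, SE 0.47, edgeR adjusted p = 0.320). Within each genotype its levels had the order of the summed cerebellum genes given further below, and a link between them was not tested. Many of the listed genes are expressed in other brain regions as well. Reln, the secreted protein reelin, is one of these, at -0.79 on the log2 scale (SE 0.29, edgeR adjusted p = 0.405).

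Tbr1, a T-box factor close to Eomes and shared by cortical projection neurons and mitral cells, was at 21.8, 16.6 and 41.1 CPM in WT brains B, D and E and at 20.8, 36.3 and 27.03 CPM in KO brains A, C and F. The groups overlapped, with a log2 fold change of 0.08 (edgeR adjusted p = 0.938). The vesicular glutamate transporters Slc17a7 (-0.15, SE 0.21) and Slc17a6 (0.21, SE 0.23), the neuropeptide Cck (0.06, SE 0.24), the axon guidance protein Ntng1 (0.21, SE 0.18) and the potassium channel Kcna3 (0.53, SE 0.25) likewise overlapped between genotypes and were not called. DESeq2 called 2 of the listed genes, Lbhd2 higher and Barhl2 lower, and edgeR without a filter on low counts called 4, which adds Nmb (higher) and Reln (lower). Over all genes these fits called 1.58% and 3.15%.

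**Figure D2:**
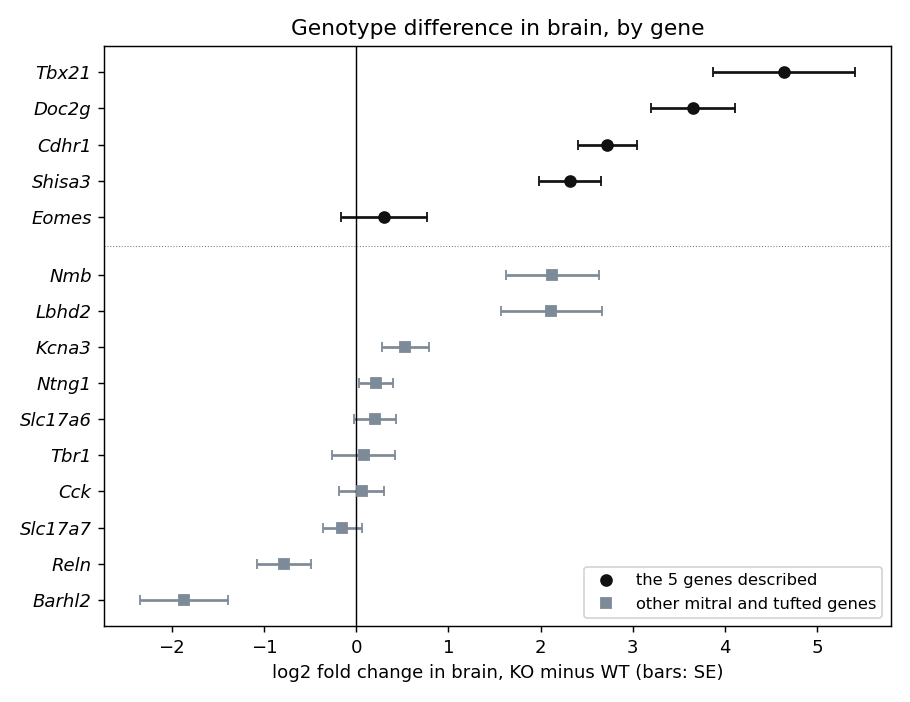
Log2 fold change in brain (KO minus WT, horizontal axis) with its SE for the 5 genes (black circles, above the dotted line) and the 10 other mitral and tufted genes tested (grey squares). Cdhr1, Doc2g, Tbx21 and Shisa3 range from 2.32 to 4.64, Eomes lies at 0.30, and the other genes range from -1.87 (Barhl2) to 2.13 (Nmb); the Tbx21 value depends on the prior count because WT held 2 counts.

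Genes of the cells that surround mitral and tufted cells in the bulb were counted in the same way. Of 16 genes of bulb interneurons, 2 were called higher, Sp8 and Pbx3, and 9 had all KO brains above all WT brains, with a median log2 fold change of 0.88. The one interneuron gene with all KO brains below all WT brains was Etv1, at -0.83 (SE 0.22, edgeR adjusted p = 0.331). Sp8 rose from 0.636 ± 0.204 to 4.69 ± 0.988 CPM (SD, n = 3, edgeR adjusted p = 0.0303), but passed the filter only with the KO brains, as did Scgn and Dlx6 of this list, so these 3 genes give no support for a difference. Pbx3 rose from 21.5 ± 2.47 to 47.2 ± 4.49 CPM (SD, n = 3, edgeR adjusted p = 0.0417). Among 6 genes of olfactory sensory neurons, whose axons end in the bulb, 5 were tested and 2 called higher, Omp and S100a5. S100a5, with 0 to 3 counts in WT and 73 to 102 in KO brain, and Stoml3 passed the filter only with the KO brains. Neither of them therefore gives support for a difference. Of the 5, 4 had all KO brains above all WT brains, and Gng13 had all below (26.8 against 15.6 CPM, edgeR adjusted p = 0.346). Over all genes, the shares were 0.0640% for calls and 8.41% for KO above WT without overlap, and some of these genes were known from earlier results of the same libraries.

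Markers of other brain regions were counted in the same libraries. All 8 genes of a cerebellum list were lower in every KO brain than in every WT brain, against 7.94% of all genes, with a median log2 fold change of -1.77, although 0 of 8 were called (0% of all genes were called lower). The summed level of this list was 735 to 1368 CPM in WT and 83.9 to 523 CPM in KO brain. Of 7 choroid plexus genes, 4 were lower without overlap. The 8 genes of cortical projection neurons had a median of 0.07, and for none of them did the groups separate. The part of these differences in the levels of the 5 genes was not tested.

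Within each genotype, the brain with the most cerebellum counts was also the one with the most Eomes. The same brains also had the most Doc2g and Shisa3 and the highest sum of the bulb interneuron genes. In KO brains A, C and F the cerebellum sum was 83.9, 523 and 335 CPM, in the same order as Eomes at 3.98, 8.92 and 4.35 CPM. In WT brains B, D and E the sum was 835, 1368 and 735 CPM, beside Eomes at 2.90, 7.98 and 3.06 CPM, so mouse D was highest in both while B and E were in reverse order. Lmx1a, a marker of unipolar brush cells looked up after the values of Eomes had been seen, was at 1.22 CPM in WT and 0.839 CPM in KO on average, with overlapping groups. Shisa3 shared both the order among the KO brains and the highest WT value in mouse D, Cdhr1 shared the first alone, Doc2g the second alone and Tbx21 neither. A role of cerebellar cells in the Eomes level was not tested.

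**Figure D3:**
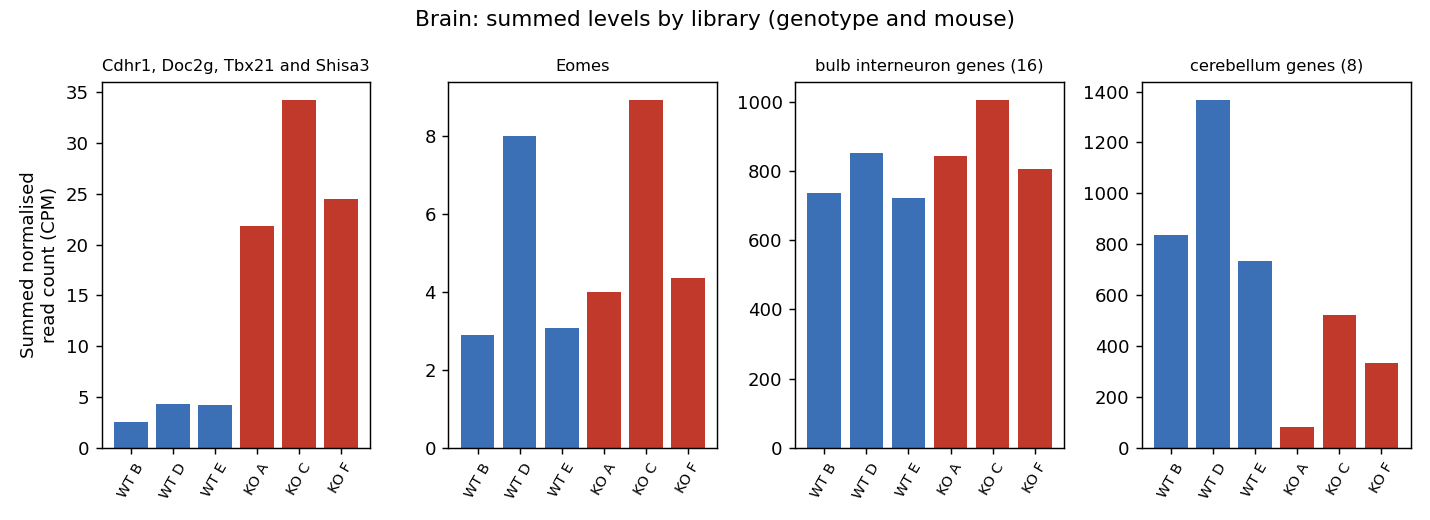
Summed normalised read count (CPM, linear axes from 0) in each brain library for Cdhr1, Doc2g, Tbx21 and Shisa3 together, for Eomes, for 16 bulb interneuron genes and for 8 cerebellum genes, WT in blue and KO in red. The first panel runs from 2.51 to 4.32 CPM in WT and from 21.9 to 34.2 CPM in KO (with Eomes added, 5.41 to 12.3 and 25.8 to 43.2 CPM), the cerebellum genes run the other way, and Eomes follows neither split.

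The other cell types that make these genes were checked by their markers. Of 16 genes of natural killer and T cells, 12 were at 3 counts or fewer in every brain library, among them Ncr1, Nkg7, Gzma and Cd3e, and the summed level was 6.32 to 8.76 CPM in WT and 7.05 to 11.4 CPM in KO brain. Most of that sum came from Ptprc and Cd4, which were at 4.55 and 2.29 CPM in WT and 6.02 and 3.20 CPM in KO and which brain macrophages also express. The remaining genes, Il2rb and Prf1, reached at most 4 and 6 counts in a brain library. Counts this low do not show whether such cells were present, and their part in the Tbx21 level was not tested. The photoreceptor genes Crx, Gnat1 and Prph2 were likewise at 3 counts or fewer in every brain library. Sag, an arrestin gene, was the single retina or pineal gene tested, at 0.935 ± 0.338 CPM in WT and 1.91 ± 0.522 CPM in KO (SD, n = 3), without overlap and not called. Rcvrn (5 to 9 counts in WT, 1 to 3 in KO) and Aanat (1 to 5 in WT, 0 in KO) of the same list were too low to test, with all KO below all WT brains (7.94% of all genes tested). Of 8 intermediate progenitor genes, 6 were tested and 0 called. Dcx, Sox11 and Mki67 had all KO brains above all WT brains and Neurod1 all below, where 8.41% of all genes lay above and 7.94% below. Mki67 passed the filter only with the KO brains, so it gives no support for a difference. Dcx, a marker of migrating neuroblasts, had a log2 fold change of 1.16 (SE 0.23), and Neurod1, which cerebellar granule cells also express, one of -1.46 (SE 0.49).

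Relatives of the 5 genes within their protein families were counted last. Of 18 listed genes, namely T-box, Doc2, Shisa and Cdhr genes and the rabphilin gene Rph3a, 14 were tested in brain and 0 called, 1 had all KO brains above all WT brains (8.41% of all genes did), and the median log2 fold change was 0.01. Counts of calls are edgeR's throughout. In this comparison 11 of all genes were called, 1885 had an unadjusted p under 0.05, and DESeq2 called 269, of which 136 were higher.

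The liver libraries took no part in choosing the genes and were used to ask whether the same genes differed by genotype there. Only Shisa3 passed the filter on low counts. Shisa3 was at 0.206, 0.192 and 0.397 CPM in WT livers B, D and E and at 1.14, 0.784 and 0.834 CPM in KO livers A, C and F, from 4, 3 and 7 and from 19, 14 and 16 counts. The KO livers all lay above the WT livers, as for 6.50% of the 14075 genes tested, and the gene passed the filter through the KO libraries alone. The means were 0.265 ± 0.115 and 0.921 ± 0.195 CPM (SD, n = 3).

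The log2 fold change of Shisa3 in liver was 1.76 (SE 0.51), which missed the threshold when adjusted over every gene tested (edgeR adjusted p = 0.465). Because the KO libraries alone brought the gene past the filter, this fit gives no support for a difference. The exact permutation p, two-sided, was 0.1, the smallest that 3 against 3 libraries allow. Over the alternatives tried, the adjusted p ran from 0.205 to 0.985 and the log2 fold change from 1.58 to 2.16. Of all liver genes, 0% were called by edgeR, while 1032 had an unadjusted p under 0.05 and DESeq2 called 171, Shisa3 not among them. The edgeR count became 87 without WT mouse D, 82 with the Y-linked covariate and 443 with no filter, in each case without Shisa3. Atp8a1, on the opposite strand, was at 12.3 ± 3.70 CPM in WT and 9.69 ± 3.53 CPM in KO liver (SD, n = 3), with overlap.

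The other 4 genes were too low in liver for the fit. Doc2g had 2, 6 and 14 counts in WT livers B, D and E and 3, 10 and 1 counts in KO livers A, C and F (exact permutation p = 0.6, two-sided). Tbx21 had 6, 1 and 5 counts in WT and 2, 5 and 12 in KO (exact permutation p = 0.6), and Eomes 0, 4 and 6 in WT and 0, 1 and 5 in KO (exact permutation p = 0.7). All 3 overlapped between genotypes. Cdhr1 had 0, 3 and 0 counts in WT and 0 in each KO liver, at or below the limit of 3 counts, so no fold is given.

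Tbx21 and Eomes are also made by lymphocytes, whose markers were therefore read in liver. Of the 16 natural killer and T cell genes, 1 was at 3 counts or fewer in every liver library, Ifng. Their summed level was 19.9 to 34.2 CPM in WT and 12.4 to 33.3 CPM in KO liver. In KO livers A, C and F the sums were 20.7, 12.4 and 33.3 CPM beside 2, 5 and 12 Tbx21 counts, and in WT livers B, D and E 19.9, 30.1 and 34.2 CPM beside 6, 1 and 5. Tbx21 did not follow the order of the sums in either genotype, and the sums were mostly Ptprc, a gene of all leukocytes (20.9 CPM in WT and 14.01 CPM in KO on average). Of 4 natural killer cell genes looked at after the values were seen, Klrb1c (at most 7 counts) had the order of Tbx21 in both genotypes, Il2rb in WT alone, and Ncr1 and Gzmb in neither. The part of such cells in the liver levels was not tested.

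**Figure D4:**
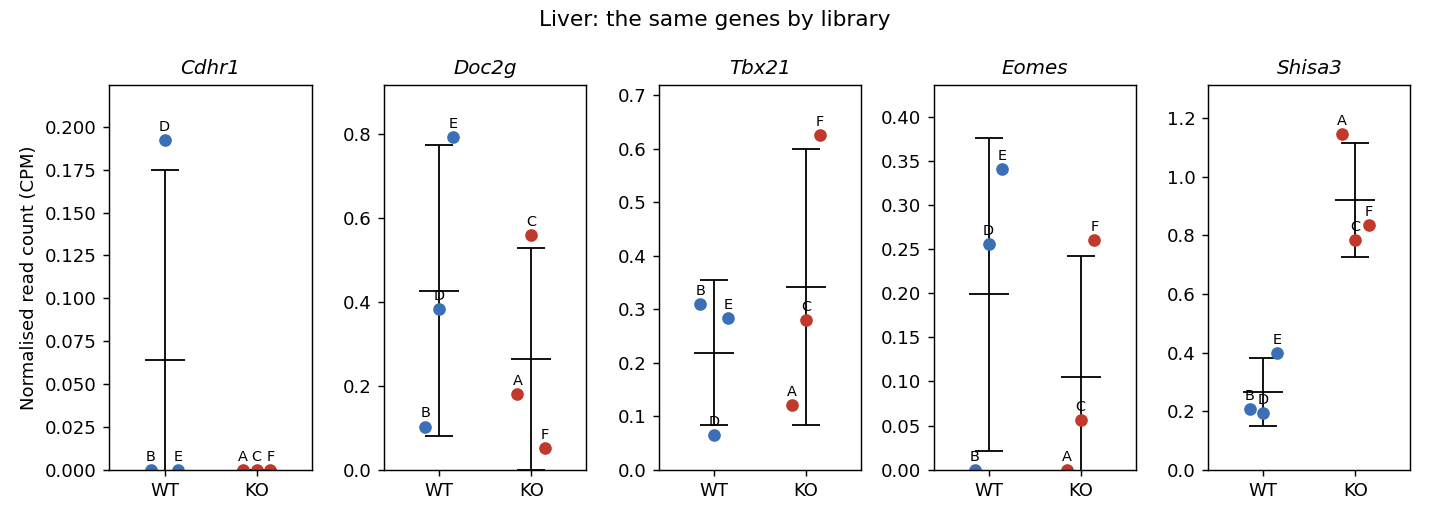
Normalised read count (CPM, linear axes from 0, scaled per panel) of each gene in the liver libraries, one point per mouse with its letter, WT in blue and KO in red, with the mean and SD (n = 3) as black lines. Shisa3 alone has all KO livers above all WT livers (0.192 to 0.397 against 0.784 to 1.14 CPM), and the other 4 genes rest on 14 counts or fewer per library.

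WT brain was compared with WT liver to place the genes in the tissue without the KO libraries. Cdhr1 had 21, 46 and 59 counts in WT brain against 0, 3 and 0 in WT liver, a depth-scaled ratio of 40.0 (95% exact interval 13.4 to 196, for counting error only). All 3 liver counts came from mouse D, so without that mouse Cdhr1 was at 0 in liver. Eomes had 45, 159 and 61 counts in WT brain against 0, 4 and 6 in WT liver, a log2 difference of 3.88 (SE 0.74), or 3.46 without mouse D and 4.80 without mouse E. Shisa3 had 14, 21 and 19 counts against 4, 3 and 7, a log2 difference of 1.18 (SE 0.48). These 3 genes passed the filter through the brain libraries alone, and the WT brain values took part in choosing them. The values are thus a description with no p. Of all 17694 genes, 42.9% were called higher in brain and 35.4% lower, and the median of all genes in this fit was 0.16.

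Doc2g and Tbx21 did not pass the filter in this comparison. Doc2g was at 0.466 ± 0.382 CPM in WT brain and 0.427 ± 0.348 CPM in WT liver (SD, n = 3), with overlap, and Tbx21 at 0.0382 CPM in WT brain and 0.219 CPM in WT liver.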

How the data were processed

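The authors prepared stranded total RNA libraries, trimmed single-end reads with Trimmomatic, aligned them to mm10 with STAR 2.7.3a (quality was checked with FastQC 0.11.5) and counted reads over exons per gene with featureCounts in reverse-stranded mode. The deposited table holds these raw counts for 12 libraries, and 0 of its columns were left unused. Library totals ran from 14403309 to 21623180 counts.

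Each comparison was fitted on its own 6 libraries with edgeR 4.0.16 (limma 3.58.1, R 4.3.3): TMM normalisation, the filterByExpr filter, robust quasi-likelihood F tests, with Benjamini-Hochberg adjustment across the genes tested, and calls were made below an adjusted p of 0.1. CPM use the TMM-scaled library size, and log2 CPM for correlations a prior count of 2. SE were derived from the F statistic. The steps were tested on simulated data. A limit of 3 counts per library was taken as the floor, and limits and intervals cover counting error only. Single values were compared with exact permutation tests, for which 3 against 3 libraries give no p below 0.1.

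The genes described and the gene lists were chosen with earlier results of these data known, so no p is given for the 5 genes in KO against WT brain, nor for WT brain against WT liver. Named were the 5 genes, Mettl5, genes of the lists, and the 10 genes with the highest mean Pearson correlation with the 5, across libraries and with genotype means removed. A further gene planned for the list of other mitral and tufted genes is not reported here and was left out of its counts. Gm49405, Gm33460, Atp8a1 and Lmx1a were looked up after values were seen. Promoters were taken from a RefSeq table of GRCm38.p6, in which all 5 symbols matched.

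Liver and brain of a mouse carry the same letter and come from the same animal, so mouse was used as a block in one alternative of the tissue comparison. Over 12574 genes, liver and brain deviations of 1 mouse from their group means had correlations from -0.0389 to 0.140. Pairs of KO and control mice, which the study mentions, are not identified in the labels. Alternatives were DESeq2 1.42.0, RLE normalisation, no filter, fits without robust dispersions, fits over all 12 libraries, without mitochondrial rRNA, with a Y-linked covariate, and without each mouse.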

Additional observations from a re-analysis of the deposited data

How the results depend on the processing

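Leaving out a mouse moved the brain log2 fold changes of the 5 genes, which stayed positive except for Eomes without KO mouse C (-0.17). The widest ranges were 3.33 to 4.55 for Doc2g (highest without WT mouse D), 4.09 to 5.07 for Tbx21 and -0.17 to 0.94 for Eomes. The range of Tbx21 rests on 2 WT counts and the prior count. The 0 other mitral and tufted genes called in brain became 2 with DESeq2 and 4 with no filter on low counts. Over all genes, brain calls were 11 (all higher), 269 with DESeq2 (136 higher) and 1000 with no filter (497 higher). With a mouse left out they ran from 2 without WT mouse E (2 higher) to 23 without KO mouse C (13 higher). The causes of these moves were not tested.

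In the tissue comparison of WT mice, 13861 genes were called, and 13588 with the replicate block, which pairs the tissues by mouse. The log2 difference of Shisa3 was 1.20 with the block and 0.94 to 1.58 without a mouse. That of Cdhr1, 4.46, was 3.63 without WT mouse E, and without WT mouse D its liver count is 0 and the fitted value rests on the prior count. In liver, 0 of the 5 genes were called under every alternative run. No paired analysis was possible between genotypes because the labels name no pairs of mice, although the study describes its KO and control mice as pairs. The cause of these changes was not tested. Tbx21 in WT brain and 4 of the 5 genes in liver rested on few counts, and the size of difference that could be detected there was not tested.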
